A study of Medicago ruthenica with 9 samples.

Results

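PC-3p-54_81480 is a predicted miRNA of *Medicago ruthenica*, a forage legume, and is described here in 9 small RNA libraries from leaves. It is 1 of the 595 miRNA names in the table of normalized counts and 1 of the 63 names beginning with PC, which are sequences predicted from a hairpin fold and not matched to a miRBase precursor. The miRNA was taken by its name, and it was chosen by values measured in these same libraries, namely its high mean level among the predicted miRNAs and its low level in rewatered leaves. Its levels, shares and differences between groups are therefore given as a description and without a test.

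Seedlings 4 weeks old were divided into 3 groups, each with 3 libraries. RW plants were kept without water for 15 days, then watered to saturation, and their leaves were taken 2 days later. DS plants were kept without water for 15 days, when soil moisture had reached 20%, and were sampled at that point. CK plants were watered every 3 days, with soil moisture kept above 80%, and were sampled together with DS. RW leaves were thus 2 days older than DS and CK leaves, and age and rewatering cannot be told apart in them.

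Plant miRNAs are cut from a hairpin precursor as a short duplex with overhanging 3′ ends. One strand, the guide, is loaded into an Argonaute protein and directs the silencing of mRNAs that pair with it, while the opposite (star) strand is usually less abundant. In Arabidopsis the first base of the guide helps to decide which Argonaute protein takes it up, with AGO1 favouring U. In bulk leaf RNA, a lower miRNA level from fewer cells that make it and from less miRNA per cell cannot be told apart.

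The sequence of PC-3p-54_81480 is shown first, with its seed (bases 2 to 8) in capitals, followed by the 2 other names that the table places on the same assembled transcript, TRINITY_DN22875_c1_g3, with the bases that form Watson-Crick pairs with PC-3p-54_81480 in capitals. All are written 5′ to 3′ with T for U, as in the table.

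PC-3p-54_81480: cGGGATCGgagattagagaat

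PC-5p-400_9674: TCTtTAATCTCCGATCCCaaa

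PC-5p-35690_161: TCTAATCTCCGATCCCGaatt

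PC-3p-54_81480 was 21 nt long, began with C and held 47.6% G and C, the same as the median of the 184 names of its length. None of the 542 other sequences in the table shared its seed, and the longest stretch in common with any of them was 9 bases. No second name in the table is thus a length variant of it, while variants with changed bases were not searched for. PC-5p-400_9674, also 21 nt, faced bases 2 to 19 of PC-3p-54_81480 with 17 Watson-Crick pairs, 1 G:U pair and no mismatch among them. Base 1 of PC-3p-54_81480 (C) faced base 19 of PC-5p-400_9674 (A) without pairing. The 3′ end of each strand overhung the other strand by 2 bases. To show the paired bases on the other strand, the sequence of PC-3p-54_81480 is given again with its Watson-Crick pairs to PC-5p-400_9674 in capitals.

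PC-3p-54_81480 (paired): cGGGATCGGAGATTAgAGAat

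PC-5p-35690_161 paired with bases 1 to 17 through 17 Watson-Crick pairs without a G:U pair or a mismatch, leaving 4 unpaired bases at each 3′ end. Another 31 sequences from other transcripts, or with no transcript listed, met the same limit of 16 or more facing bases with at most 4 mismatches. They had only 5 to 12 Watson-Crick pairs and 3 or 4 mismatches each, and they are not described further.

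The forward primer listed for the quantitative PCR assay of this miRNA is shown because it carries the sequence that the assay was designed on. The part in capitals is identical to the whole 21-nt sequence of the table, and 3 bases precede it.

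Primer: ccgCGGGATCGGAGATTAGAGAAT

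The quantitative PCR and degradome measurements of the study were not analysed here.

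PC-3p-54_81480 was abundant in every library. Its mean over the 9 libraries was 8870 normalized counts, the 12th highest of all names. It ranked 16th, 16th and 13th among all names in RW replicates 1, 2 and 3, 11th, 11th and 10th in DS, and 11th, 10th and 11th in CK. It was the first of the PC-named miRNAs in all 9 libraries.

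The deposited value of PC-3p-54_81480 was 4649, 2991 and 5852 normalized counts in RW replicates 1, 2 and 3. In DS replicates 1, 2 and 3 it was 11410, 9458 and 14473. In CK replicates 1, 2 and 3 it was 10420, 10344 and 10234. All 3 RW libraries lay below all 6 others, and the highest RW value was 0.619 of the lowest DS value and 0.572 of the lowest CK value, while DS and CK overlapped. The group means were 4497 ± 1436 in RW, 11781 ± 2528 in DS and 10333 ± 93.8 in CK (SD, n = 3 each).

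RW was thus at 38.2% of the DS mean and 43.5% of the CK mean. On the log2(value + 1) scale used for all names, the difference was −1.42 ± 0.27 for RW vs. DS, −1.25 ± 0.27 for RW vs. CK and 0.17 ± 0.27 for DS vs. CK (± SE from the limma fit of all 9 libraries). The levels were ordered DS, CK, RW by their means, and the neighbours DS and CK did not differ beyond their spread. Without RW replicate 2, which had the lowest value, the RW vs. DS difference was −1.15 and the RW vs. CK difference −0.99. Scaling each library to the upper quartile of its names above 0 turned the DS vs. CK difference to −1.28 and moved RW vs. DS to −0.78 and RW vs. CK to −2.06. The number of names above 0 itself differed between the groups, at 347 to 376 in RW, 283 to 305 in DS and 423 to 489 in CK.

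**Figure D1:**
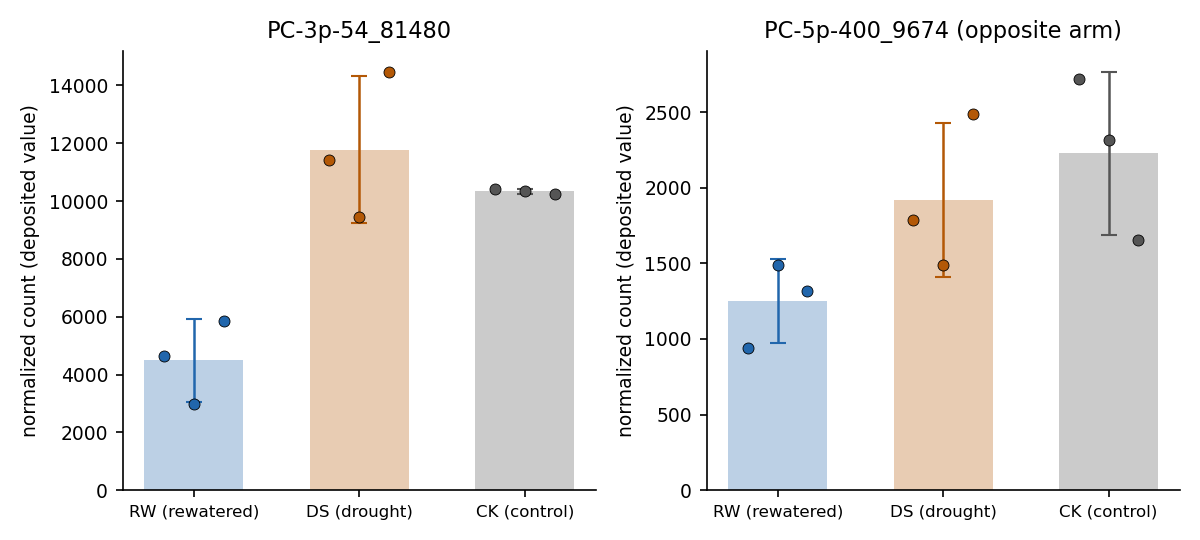
Normalized counts of PC-3p-54_81480 (left) and of PC-5p-400_9674 (right), with RW, DS and CK from left to right. Points are libraries in replicate order, bars the mean and whiskers the SD (n = 3). The 3 RW libraries of PC-3p-54_81480 sit between 2991 and 5852, below all DS and CK libraries.

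The pattern of every RW library lying below every DS and CK library was found in 6 of the 339 names that passed the filter on low values (1.77%). It was used in choosing PC-3p-54_81480, so its presence there is no result. The other 5 names were PC-5p-400_9674, mtr-miR408-3p, mtr-miR5232, mtr-miR5559-5p and mtr-miR398a-3p_L+1R-1. They include miRNAs of the families miR408 and miR398, which in Arabidopsis silence mRNAs of copper proteins. Other tested names of these families, such as mtr-miR398b and bra-MIR408-p5, were not among the 6.

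The spread between libraries was uneven between the groups. Around its own mean, PC-3p-54_81480 had a coefficient of variation of 31.9% in RW, 21.5% in DS and 0.907% in CK. The CK value was the smallest of all 339 names, whose median was 37.0% in CK, and it was also under the 8.71% to 37.2% of the 10 names nearest in mean level. As a share of the table total, the same 3 CK libraries had a coefficient of variation of 10.3%, beside a median of 37.5% over the tested names. As a share of the total without the most abundant name, mtr-miR166a, it was 4.52%. How close the CK values lay thus depended on the scaling.

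The values of each library lay on equal steps, with 95.4% to 98.5% of distinct values lying on whole steps (within 0.02 of a step). What 1 step stands for is uncertain, since some values lay on fractions of a step and PC-3p-54_81480 had an even number of steps in all 9 libraries. If 1 step is taken as 1 read, PC-3p-54_81480 rested on 10102, 5612 and 9484 reads in RW replicates 1, 2 and 3, on 14474, 11226 and 16216 in DS, and on 39940, 33376 and 40680 in CK. Under the same assumption, counting error alone was 0.995% to 1.33% of the value in RW, 0.785% to 0.944% in DS and 0.496% to 0.547% in CK. It was small against the spread between RW or DS libraries. Counted in steps, the table totals were 2030950 to 3224245 in RW, 1580927 to 1769189 in DS and 3992625 to 5761724 in CK, so depth and group cannot be told apart.

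The share of the library total does not depend on the authors' scaling factor. PC-3p-54_81480 made up 0.357%, 0.174% and 0.467% of the table total in RW replicates 1, 2 and 3. It made up 0.892%, 0.635% and 1.03% in DS, and 0.693%, 0.836% and 0.715% in CK. The RW shares lay below all others, and DS and CK overlapped. The mean shares were 0.333% ± 0.148 in RW, 0.851% ± 0.199 in DS and 0.748% ± 0.0768 in CK (SD, n = 3 each).

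Most of each library was a single name, mtr-miR166a, a miRNA of the family that silences class III HD-ZIP transcription factors. It held 61.0% ± 5.86 of the table total in RW, 54.9% ± 6.05 in DS and 56.6% ± 5.68 in CK. With that name left out of the total, the share of PC-3p-54_81480 was 0.829% ± 0.286 in RW, 1.90% ± 0.509 in DS and 1.73% ± 0.0782 in CK. The 10 names of the families miR5368, miR2916, miR6300 and miR3630, whose sequences are often taken for fragments of longer RNAs, summed to 2.05% ± 0.279 of the total in RW, 1.53% ± 0.647 in DS and 0.556% ± 0.0662 in CK. Their part in the differences was not tested.

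Among the 184 names of 21 nt, 125 began with T and 26 with C. Names beginning with T held 97.3% to 99.1% of the values of this length, and names beginning with C only 0.30% to 1.31%. PC-3p-54_81480 was the most abundant of these 26 and supplied 66.1% to 92.1% of their summed values, depending on the library. The next was mtr-MIR164b-p3, with a mean of 952 normalized counts.

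PC-5p-400_9674, the strand that pairs with 2-base overhangs, was not used in choosing PC-3p-54_81480. It was second among the PC-named miRNAs in every library and had the 23rd highest mean of all names. It had 943, 1488 and 1317 normalized counts in RW replicates 1, 2 and 3, against 1785, 1491 and 2485 in DS. In CK it had 2721, 2314 and 1653. The RW libraries were the 3 lowest, but RW replicate 2 (1488) and DS replicate 2 (1491) were nearly equal, and the DS and CK values overlapped.

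Its differences were −0.61 ± 0.29 for RW vs. DS (adjusted p = 0.352), −0.83 ± 0.29 for RW vs. CK (adjusted p = 0.163) and −0.22 ± 0.29 for DS vs. CK (adjusted p = 0.693, all log2 ± SE by limma with Benjamini-Hochberg adjustment over 339 names). None passed the threshold of 0.05. As a share of the table total it averaged 0.0880% ± 0.0164 in RW, 0.139% ± 0.0380 in DS and 0.161% ± 0.0396 in CK (SD, n = 3 each). On this scale RW and DS overlapped, with 0.105% in RW replicate 3 against 0.10% in DS replicate 2, while RW and CK did not. Upper-quartile scaling turned its RW vs. DS difference to 0.030 and brought its RW vs. CK difference (−1.64, adjusted p = 0.00797) and its DS vs. CK difference (−1.67, adjusted p = 0.00279) under the threshold in the limma fit. Under this scaling 52 of 370 names were called in RW vs. CK and 176 of 370 in DS vs. CK. These calls therefore do not set PC-5p-400_9674 apart.

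PC-3p-54_81480 exceeded PC-5p-400_9674 in all 9 libraries. The ratio between both strands, which is free of any scaling of libraries, was 4.93, 2.01 and 4.44 in RW replicates 1, 2 and 3. It was 6.39, 6.34 and 5.82 in DS, and 3.83, 4.47 and 6.19 in CK. Every RW ratio was below every DS ratio, RW and CK overlapped, and RW replicate 2 stood lowest. The mean ratios were 3.8 ± 1.57 in RW, 6.19 ± 0.315 in DS and 4.83 ± 1.22 in CK (SD, n = 3 each), and without RW replicate 2 the log2 difference for RW vs. DS was −0.40 in place of −0.81.

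PC-5p-35690_161, the other strand listed on the transcript, was near the low end of the table. It had 16.6, 21.3 and 16.0 normalized counts in RW replicates 1, 2 and 3, against 0, 15.2 and 16.1 in DS and 21.4, 16.1 and 18.1 in CK. The 0 in DS replicate 1 is a value not listed, since the smallest value above 0 in that library was 3.94, or 5 steps. The 3 groups lay close together apart from that library, and the name gave adjusted p = 0.484 for RW vs. DS, 0.978 for RW vs. CK and 0.375 for DS vs. CK in limma.

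**Figure D2:**
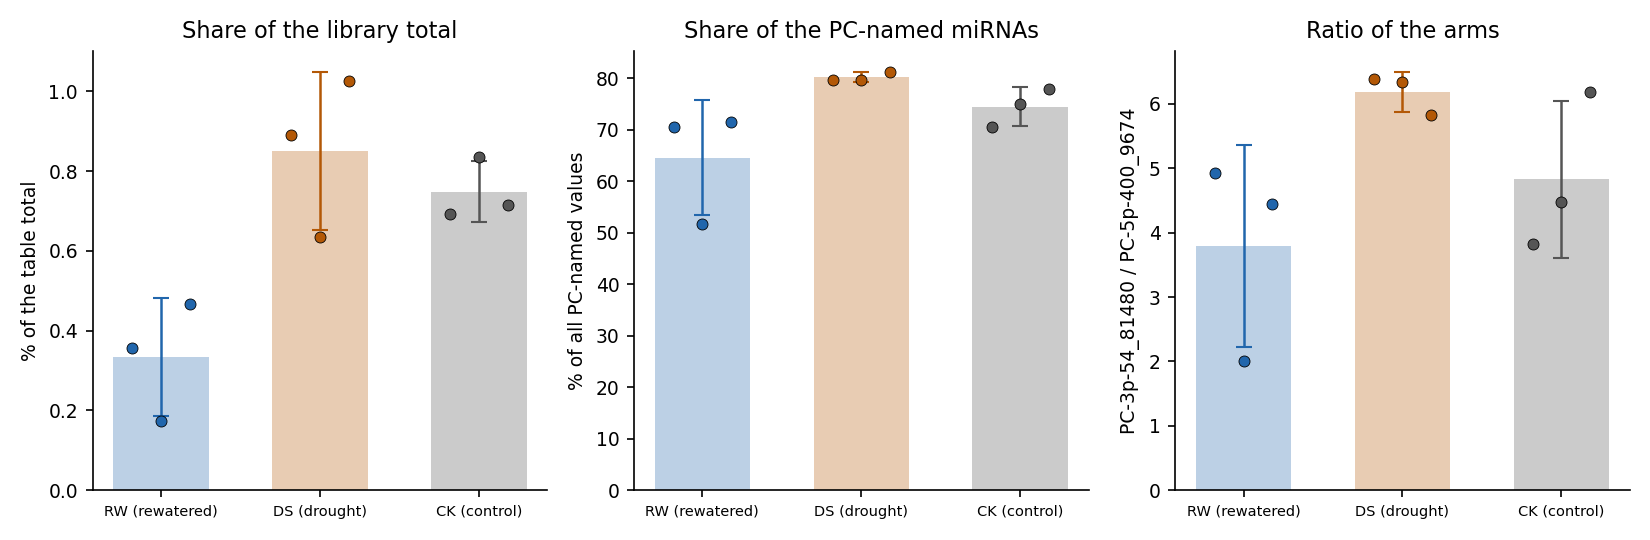
PC-3p-54_81480 as a percentage of the table total (left) and of the summed PC-named values (middle), and its ratio to PC-5p-400_9674 (right), with RW, DS and CK from left to right. Points are libraries in replicate order, bars the mean and whiskers the SD (n = 3). RW replicate 2 is the lowest point in all panels, with 0.174%, 51.6% and a ratio of 2.01.

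PC-3p-54_81480 supplied most of the signal of the predicted class. It made up 70.5%, 51.6% and 71.5% of the summed PC-named values in RW replicates 1, 2 and 3. It made up 79.7%, 79.7% and 81.3% in DS, and 70.5%, 75.1% and 77.9% in CK. The DS shares were above all RW and CK shares, while RW and CK overlapped. With PC-3p-54_81480 and PC-5p-400_9674 both removed, the remaining PC-named miRNAs summed to 0.0783% ± 0.00245 of the table total in RW, 0.0700% ± 0.0158 in DS and 0.0956% ± 0.0119 in CK (SD, n = 3 each).

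The other PC-named miRNAs were far lower. The median of their 62 means was 3.87 normalized counts, 43 had a mean under 10 and 58 a mean under 100, and 11 were above 0 in all 9 libraries. The mean of PC-3p-54_81480 was 4.93 times that of PC-5p-400_9674, 26.8 times that of PC-3p-905_4408 and 53.2 times that of PC-3p-15383_407. It was 85.8 times that of PC-5p-19253_324 and 108 times that of PC-3p-10861_575, the fifth of the others.

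In normalized counts, none of these apart from PC-5p-400_9674 had all RW libraries below all DS and CK libraries. PC-3p-905_4408 averaged 247 ± 60.6 normalized counts in RW, 293 ± 104 in DS and 453 ± 217 in CK. PC-3p-15383_407 averaged 166 ± 26.5 in RW, 182 ± 49.0 in DS and 152 ± 11.4 in CK. PC-5p-19253_324 was highest in RW by its mean, with 143 ± 27.7, against 75.5 ± 13.1 in DS and 91.3 ± 13.5 in CK. PC-3p-10861_575 averaged 122 ± 120 in RW, 61.7 ± 24.6 in DS and 63.3 ± 25.4 in CK (SD, n = 3 each), its RW mean resting on widely spread libraries.

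Of the other 62 PC-named miRNAs, 33 passed the filter on low values. In RW vs. DS, limma called none of them higher (background 1.47% of all 339 names) and none lower (background 0.885%). At an unadjusted p under 0.05 in limma there were 7, beside 48 of all 339 names. By the test of the study's methods there were 3, beside 21 of 510 names over the whole table. In RW vs. CK none was higher (background 2.95%) and 2 were lower (background 2.36%), namely PC-3p-78936_58 and PC-5p-21436_288. In DS vs. CK none was higher (background 2.06%) and 2 were lower (background 3.24%), namely PC-5p-81557_56 and PC-3p-78936_58. The difference of PC-3p-78936_58 from CK was −4.29 in both RW and DS, with a mean of only 6.52 normalized counts. PC-3p-78936_58 passed the filter through its CK values, so its lower calls follow from the filter and are no result. The medians of the 33 differences were 0.61, −0.05 and −1.10 on the log2 scale in RW vs. DS, RW vs. CK and DS vs. CK, beside 0.16, −0.11 and −0.36 over all 339 names. Of the 62, 43 had a mean under 10, and the floor differed by group. The smallest value above 0 was 2.30 to 3.09 in RW, 3.94 to 4.21 in DS and 0.652 to 1.55 in CK. How far the floor and depth set these medians was not tested.

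Next, PC-3p-54_81480 was set beside the 5 names above and the 5 names below it in mean level. These were nta-miR482a, mtr-miR164a, gma-miR167c_R+1, mtr-MIR1510a-p5_1ss21AT and gma-MIR5368-p3_2ss1AT18CA above it. Below it were gma-MIR5368-p5_1ss1TC, lja-miR1511-3p_R-3, gma-miR394a-5p_L+1, lja-miR167a_R+1 and mtr-miR168b. They include families of known targets, as miR164 silences NAC factors, miR167 auxin response factors, miR482 disease resistance genes and miR168 the mRNA of AGO1. Their means ran from 29771 down to 4215 normalized counts.

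The 10 names were taken by mean level alone and PC-3p-54_81480 also by its low RW level, so its distance from them in RW is no result. The RW vs. DS differences of these 10 names ran from −0.72 to 0.87 with a median of −0.03 on the log2 scale, against −1.42 for PC-3p-54_81480. In limma 0 of the 10 passed the threshold, with 2 at an unadjusted p under 0.05, beside 48 of all 339 names. By the test of the study's methods there was 1, beside 21 of 510 names. With a background of 1.47% higher and 0.885% lower over all 339 names, a count of 0 among 10 does not set these names apart. In RW vs. CK the 10 differences ran from −0.65 to 2.17 with a median of −0.27, against −1.25 for PC-3p-54_81480. Both names that passed (background 2.95% higher and 2.36% lower) were miR5368 sequences and higher in RW, gma-MIR5368-p3_2ss1AT18CA by 2.17 (adjusted p = 0.00520) and gma-MIR5368-p5_1ss1TC by 1.62 (adjusted p = 0.0110).

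In DS vs. CK the 10 differences ran from −0.55 to 1.47 with a median of −0.09, against 0.17 for PC-3p-54_81480, and gma-MIR5368-p5_1ss1TC was the 1 name called, higher in DS (1.47, adjusted p = 0.0158, limma, background 2.06%). The spread within groups, pooled over RW, DS and CK, was 0.34 for PC-3p-54_81480 on the log2 scale, inside the 0.20 to 0.50 of the 10 names. Among the 339 names, 17 had a lower RW vs. DS difference and 57 a lower RW vs. CK difference than PC-3p-54_81480.

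**Figure D3:**
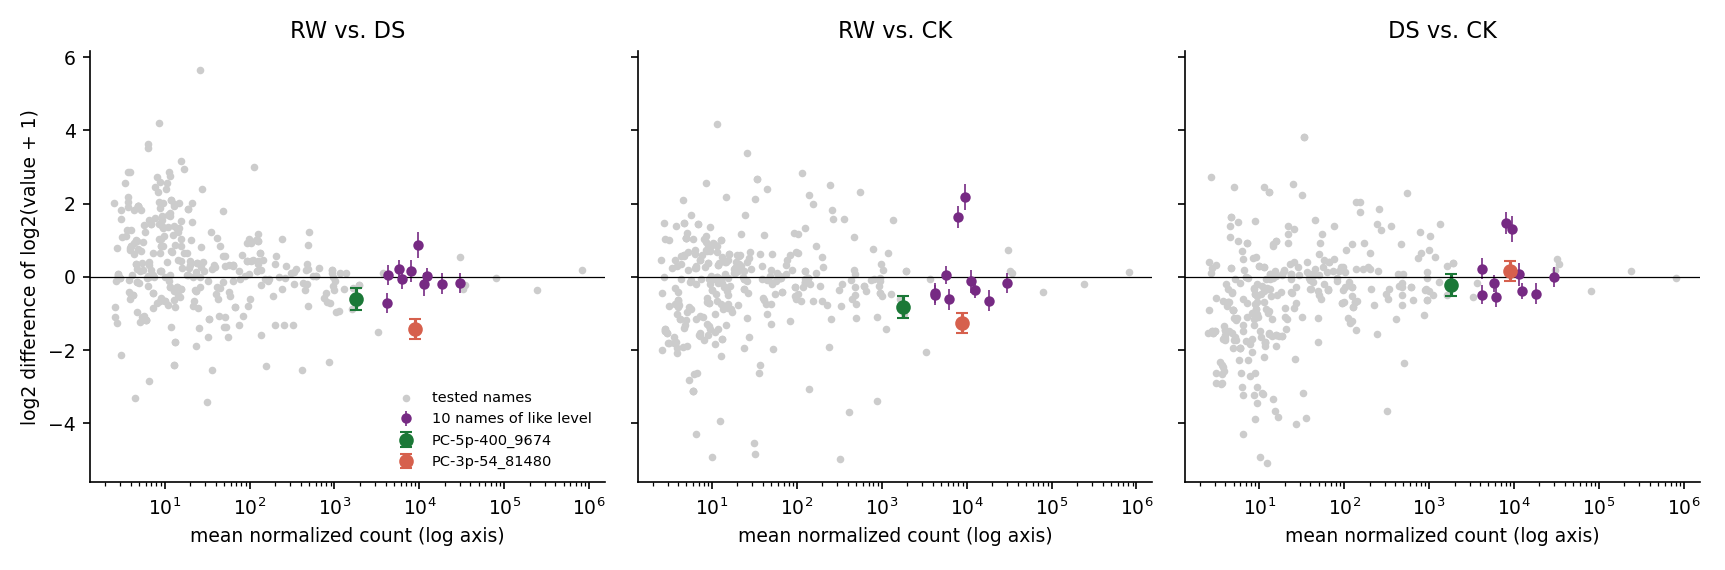
Difference of log2(value + 1) against mean normalized count (log axis) for RW vs. DS, RW vs. CK and DS vs. CK, with the 339 names in grey, the 10 names of like level in purple, PC-5p-400_9674 in green and PC-3p-54_81480 in red (whiskers are the SE). PC-3p-54_81480 lies below all 10 names of like level in RW vs. DS and RW vs. CK, but it was chosen for its low RW level, so this place is no result.

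The profiles of the tested names over the 9 libraries were compared with that of PC-3p-54_81480 by the root mean square difference of log2(value + 1) after centring each name. Over 314 sequences the median of this measure was 1.25. The nearest was mtr-miR156b-5p at 0.333, a member of the family that silences SPL transcription factors of the juvenile to adult transition. PC-5p-400_9674 came in the third place at 0.499, after gma-miR5770b at 0.481, and was followed by mtr-miR5232 at 0.50 and mtr-MIR2606a-p3_1ss6AG at 0.504.

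The sequence of mtr-miR156b-5p is shown with its seed in capitals because it differs from the seed of PC-3p-54_81480.

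mtr-miR156b-5p: tGACAGAAgagagtgagcac

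It had 978, 913 and 1502 normalized counts in RW replicates 1, 2 and 3, against 2213, 1640 and 2329 in DS. In CK it had 1438, 1892 and 1708. All RW values were below all DS values, and RW replicate 3 lay above CK replicate 1. These 5 names were picked for their likeness, so their own group differences are no support for it. In limma none of the 5 passed the adjusted threshold in any of the comparisons. At an unadjusted p under 0.05 there were 1 in RW vs. DS, 4 in RW vs. CK and 0 in DS vs. CK. Over all 339 names these counts were 48, 53 and 66. The test of the study's methods gave 1, 0 and 0 of the 5, beside 21 of 510, 40 of 591 and 33 of 568 names.

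**Figure D4:**
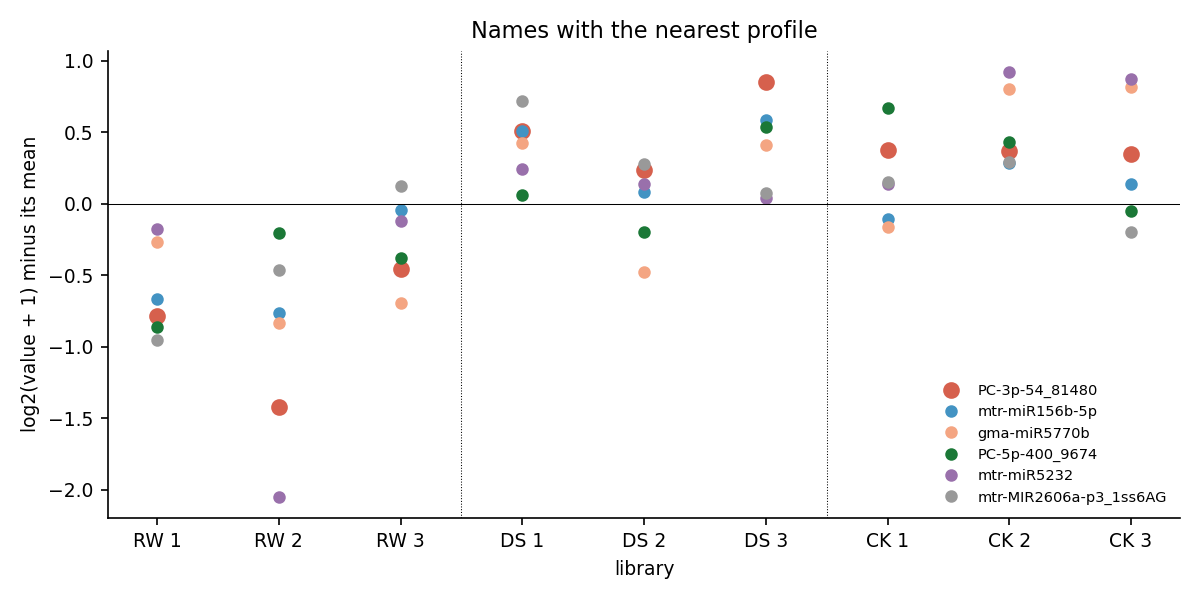
Centred log2(value + 1) in each library for PC-3p-54_81480 (large red points) and the 5 names with the nearest profile, with RW, DS and CK libraries from left to right. PC-3p-54_81480 is below 0 in the 3 RW libraries and above 0 in all DS and CK libraries, and mtr-miR156b-5p, the nearest, differs from it by 0.333 in root mean square.

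The other miRNAs of the primer list for quantitative PCR had other patterns in the table. lja-miR390a-3p, from the family that starts the production of trans-acting siRNAs against auxin response factors, averaged 130 ± 25.3 normalized counts in RW, 68.6 ± 30.3 in DS and 155 ± 13.3 in CK (SD, n = 3 each). It is a name from the 3′ arm of the hairpin and need not share that role. Its mean over the 9 libraries was 118 normalized counts, against 953 for lja-miR390a-5p of the 5′ arm. lus-miR396b_R+1_1ss19CT, from the family that silences growth-regulating factors, averaged 665 ± 18.2 in RW, 1088 ± 191 in DS and 691 ± 20.8 in CK. In limma the adjusted p-values for RW vs. DS, RW vs. CK and DS vs. CK were 0.274, 0.790 and 0.0900 for lja-miR390a-3p, and 0.214, 0.944 and 0.167 for lus-miR396b_R+1_1ss19CT. PC-3p-54_81480 was the only name of the 3 on the primer list whose CK and DS values overlapped while RW lay apart from both. Its low RW level was used in choosing it, so this contrast is no result.

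As a group with a known role, the families miR393, miR394 and miR2111 were counted, which silence mRNAs of F-box proteins, the subunits that give ubiquitin ligases their specificity. Of their 14 names 12 were tested. They include names from the 3′ arm of the hairpin, such as mtr-MIR393b-p3 and mtr-MIR2111n-p3, which need not silence the same mRNAs. In limma none was called higher or lower in RW vs. DS or in RW vs. CK. The background over all 339 names was 1.47% higher and 0.885% lower in RW vs. DS, and 2.95% higher and 2.36% lower in RW vs. CK. At an unadjusted p under 0.05 there were 2 in RW vs. DS (48 of all 339 names) and 1 in RW vs. CK (53 of 339). The test of the study's methods gave 0 in both, beside 21 of 510 names in RW vs. DS and 40 of 591 in RW vs. CK. In DS vs. CK 1 of the 12 was higher (background 2.06%) and none was lower (background 3.24%), and a single name says nothing of the group. That name was mtr-miR2111l, at 799 ± 210 normalized counts in RW, 1098 ± 309 in DS and 465 ± 97.6 in CK (DS vs. CK difference 1.22 ± 0.31, adjusted p = 0.0443).

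The most abundant of these names, gma-miR394a-5p_L+1, averaged 6171 ± 1358 in RW, 5230 ± 777 in DS and 5920 ± 697 in CK. The next, mtr-miR2111a-5p, averaged 947 ± 167 in RW, 1269 ± 486 in DS and 743 ± 170 in CK (SD, n = 3 each). The medians of the 12 differences were −0.47, −0.02 and 0.01 in RW vs. DS, RW vs. CK and DS vs. CK on the log2 scale, beside 0.16, −0.11 and −0.36 over all 339 names. Names of 1 family can differ by a single base or by their ends, so how reads were divided between them is uncertain.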

How the data were processed

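Leaf small RNA libraries (TruSeq small RNA kit, Illumina HiSeq) were processed by the authors with ACGT101-miR, which kept 18 to 25 nt sequences, matched them to miRBase 22.0 and predicted hairpins for the rest. The deposited table gives normalized counts, here treated as a signal value: counts multiplied by the authors by 1 factor per library, and no source used here describes that factor. The table has 667 lines for 595 names and 543 sequences.

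Log2(value + 1) was fitted in limma 3.58.1 (R 4.3.3) with a mean-variance trend, all 9 libraries in 1 model of 3 groups, for the 339 names that reached 5 in 3 or more libraries. P-values were adjusted by Benjamini-Hochberg, and names under 0.05 were called. The replicate numbers of the labels pair no libraries.

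The named miRNAs were PC-3p-54_81480, the names pairing with it, the 5 next PC-named miRNAs by mean, 5 neighbours in mean on each side, the 5 nearest profiles, the miRNAs of the quantitative PCR list, and the top 3 of the F-box-silencing families. PC-3p-54_81480 and these lists were chosen with earlier results of these data known. Alternatives were other scalings, pseudocounts, filters, tests and left-out libraries. No genome was used, so no coordinates are given.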

Additional observations from a re-analysis of the deposited data

How the results depend on the processing

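PC-3p-54_81480 was chosen on its group differences, so their adjusted p is no test of it and is used here only to say how the limma fit responds. With all 9 libraries it was 0.0175 for RW vs. DS, 0.0230 for RW vs. CK and 0.742 for DS vs. CK. The log2 difference for RW vs. DS lost the 0.05 threshold when scaled to the table total (−1.44), to the total without the most abundant name (−1.23), to the total without the fragment-like families (−1.43) or to the upper quartile (−0.78), with only the groups compared (−1.42, adjusted p = 0.0919) and without the mean-variance trend (−1.42, adjusted p = 0.123). The difference for RW vs. CK lost it under the first 3 of these scalings (−1.28, −1.12 and −1.26) and without the trend (−1.25, adjusted p = 0.121). DS vs. CK turned to −1.28 with upper-quartile scaling. The cause was not tested. Upper-quartile scaling turned RW vs. DS of PC-5p-400_9674 to 0.030.

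With each library left out in turn, the differences ran from −1.64 to −1.15 (adjusted p 0.0264 to 0.0780) in RW vs. DS, from −1.47 to −0.99 (0.0217 to 0.0868) in RW vs. CK and from 0.008 to 0.31 (0.609 to 0.992) in DS vs. CK. The threshold was missed without RW replicate 1 (0.0576), RW replicate 2 (0.0780) or DS replicate 3 (0.0757) in RW vs. DS, and without RW replicate 2 (0.0717) or CK replicate 1, 2 or 3 (0.0858, 0.0868 and 0.0679) in RW vs. CK. The log2 ratio of mean shares of the table total was −1.35, −1.17 and 0.19 in RW vs. DS, RW vs. CK and DS vs. CK. Leaving out each library gave −1.68 to −1.05, −1.49 to −0.86 and 0.03 to 0.36 for these ratios. As a share of the PC-named miRNAs it was −0.31 in RW vs. DS and −0.21 in RW vs. CK. PC-3p-54_81480 itself made up 51.6% to 81.3% of that sum, which draws these 2 values towards 0.

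The number of names called was 8 in RW vs. DS, 18 in RW vs. CK and 18 in DS vs. CK. It moved to 16, 52 and 176 with upper-quartile scaling and to 21, 40 and 33 with the test of the study's methods at unadjusted p. In RW vs. DS it was 5 with the total without the most abundant name, 4 with a minimum of 20, 4 with only names above 0 in all libraries and 0 with only the groups compared. In RW vs. CK it was 5 without the trend and 29 when low values were set to 1 shared floor, and in DS vs. CK 11 with only the groups compared. The total without the fragment-like families, the shared floor and the limit to names above 0 in all libraries were chosen after seeing the data. Left-out libraries gave 0 to 14 calls in RW vs. DS (0 without RW replicate 1 or 2), 5 to 22 in RW vs. CK (5 without CK replicate 1) and 0 to 23 in DS vs. CK (0 without CK replicate 1).

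With the replicate block, the numbers of the labels gave the same differences of −1.42, −1.25 and 0.17 (adjusted p 0.0460, 0.0272 and 0.738) and 7, 18 and 17 calls. The deviations of libraries with the same number correlated between −0.154 and 0.0579, against −0.137 to 0.187 for different numbers, and no pairing was used. The planned count models on whole reads (edgeR, DESeq2) were not run, because part of the values in every library were not whole steps.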

Other observations

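Among the other PC-named miRNAs, several transcripts also carried names from both arms. On TRINITY_DN12908_c0_g3, PC-3p-905_4408 exceeded PC-5p-9773_636 in all 9 libraries, with a ratio of 3.90 to 15.7 and means of 331 and 49.0 normalized counts. On TRINITY_DN23596_c1_g7, PC-3p-15383_407 exceeded PC-5p-19253_324 in 8 of 9 libraries, with a ratio of 0.787 to 3.77. The ratio of PC-3p-54_81480 to PC-5p-400_9674 ran from 2.01 to 6.39. On TRINITY_DN25143_c0_g1, among other low pairs, the order by mean was the other way, with 0.671 for PC-3p-288160_9 and 24.2 for PC-5p-33566_173. Both of these names were above 0 in only 1 library, so this order rests largely on values not listed.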
